A study of Mus musculus with 36 samples.

Results

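Wild type mouse embryonic fibroblasts at time 24 were compared with the same cells at time 6. The comparison rests on 8 of the 36 arrays of the series, chosen by their labels: 4 at time 24 and 4 at time 6. The labels do not say in which unit time was counted. Wild type and PKBa-/- fibroblasts came from embryos 13.5 days old of heterozygous intercrosses, and were used between passages 15 and 20. PKBa-/- cells lack Akt1, the gene of protein kinase B alpha. The series followed both genotypes at times 0, 2, 6, 24 and 48, with 4 arrays per group, or 2 at time 2. Its title names treatment with DMEM, the basal culture medium. The extraction protocol also describes a medium for adipocyte differentiation with 3-isobutyl-1-methylxanthine, dexamethasone and insulin, and does not say which medium the cells of each array received. Neither do the labels say whether the replicates were separate cultures, so every p-value measures the spread between arrays, which may be technical.

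Fibroblasts given fresh medium and growth factors pass through an early phase, in which they raise ribosome production, protein folding capacity and metabolic enzymes, and later settle into a state that depends on nutrients, density and the signals that remain. Protein kinase B sits in the insulin and growth factor pathway. It restrains the FOXO transcription factors and promotes growth and lipid synthesis. A comparison of time 24 with time 6 describes the passage from the early to the late state and not the change from time 0.

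Each array gave 1 brightness value (signal, in linear units) per probe set. Genes were read on their brightest probe set, and differences are log2(signal + 32) at time 24 minus that at time 6. Fold values refer to signal + 32 too, so they understate changes of dim genes. Array medians lay between 133.7 and 145.2 over the series. Akt1 checked the labels: its signal was 1068, 1114, 916.6 and 940.4 at time 24 and 1082, 991.2, 988.2 and 1041 at time 6 in wild type arrays, against group means between 67.14 and 80.28 in PKBa-/- cells. Fibroblast markers were bright. The summed signal of 11 of them was 53451 to 58235 at time 24 and 55898 to 61925 at time 6. Pdgfra and Pdgfrb rose among them and Col1a1, Thy1 and S100a4 fell. The mesothelial marker Upk3b was bright as well, at 3769 to 5428 at time 24 and 3311 to 5220 at time 6, and the summed signal of 5 mesothelial markers was 6478 to 8091 at time 24 and 4873 to 7198 at time 6. Gpm6a and Wt1 rose, by 1.07 and 0.51, and Upk3b did not pass. Msln and Krt19 were too dim to be tested. Msln had 175.6 to 422.4 at time 24 and 155.9 to 277.8 at time 6, while Krt19, also an epithelial marker, had 86.1 to 89.65 at time 24, against 167 to 205.1 at time 6. In a bulk sample, fewer cells of a type and less RNA per cell cannot be told apart, and the part of these markers in the results was not tested. Ptprc, Cdh1, Adipoq and Snap25, which define leukocytes, epithelium, adipocytes and neurons, stayed at signals of at most 24.92 on all 8 arrays, but other markers of these lists were brighter. Of 10 leukocyte markers 3 were bright enough to test. Cd14 fell by 0.94 (adjusted p = 0.012, limma), with 126.2 to 280.7 at time 24 and 208.6 to 656.1 at time 6, while Csf1r and Laptm5 did not pass. The summed signal of the 10 was 934 to 1147 at time 24 and 1052 to 1486 at time 6. The 8 epithelial markers, none of them tested, summed to 550 to 630 at time 24 and 654 to 737 at time 6. Of 8 adipocyte markers 3 were tested and none passed (635 to 829 at time 24, 741 to 807 at time 6). The 7 neuronal markers summed to 315 to 350 at time 24 and 315 to 448 at time 6, with none tested. Of 8 endothelial markers Kdr alone was tested and did not pass (881 to 1222 at time 24, 770.9 to 977.5 at time 6), and the 8 summed to 1253 to 1576 at time 24 and 1096 to 1358 at time 6. Of 8 skeletal muscle markers Des alone was tested and fell by 0.62, and the 8 summed to 526 to 568 at time 24 and 635 to 737 at time 6. Of 6 cartilage and bone markers 4 were tested and none passed (713 to 1037 at time 24, 724 to 966 at time 6).

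Replicates 1 and 2 of a group resembled each other closely, and so did replicates 3 and 4. Across genes, the Pearson correlation of the log2 values within a pair was 0.992 to 0.995 in these wild type groups, against 0.956 to 0.963 across pairs. A group of 4 arrays therefore carries less information than 4 independent samples would. Counts are given for arrays as replicates and for pair averages, in which the arrays of a pair were averaged first.

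Of 7436 genes tested, 2486 passed an adjusted p of 0.05 (33.4%): 1399 rose (18.8%) and 1087 fell (14.6%). With pair averages 672 passed (9.04%), 348 of them higher (4.68%) and 324 lower (4.36%). Most changes were small. Among genes that passed, 53 were at least 2-fold higher at time 24 (0.713%) and 61 at least 2-fold lower (0.820%), or 47 and 55 with pair averages. Plain pair averages leave the shared deviation of a replicate set at both times in the error. With that set (replicates 1 and 2, or 3 and 4) as a block on pair averages, a fit chosen after seeing the data, 2192 passed (29.5%), 1201 higher (16.2%) and 991 lower (13.3%). The median difference over all genes tested was 0.02. Simulated data in which arrays of a pair share a deviation gave 392 false calls when arrays counted as replicates and 6 when pairs were averaged. The simulation drew this deviation separately at each time, whereas in the data a replicate set deviated together at times 24 and 6. The 392 is therefore no estimate of the false calls in this comparison. Genes given with the signals of each array from here on passed in both fits and moved the same way within each pair.

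The genes that fell most included a surface glycoprotein, a receptor accessory protein, smooth muscle proteins and enzymes of several metabolic routes. Cd24a, which encodes a small anchored surface glycoprotein, had signals of 172.1, 175.9, 322.5 and 246.4 at time 24, against 1868, 2079, 1925 and 1659 at time 6. All time 24 arrays lay far under all time 6 arrays, a 7.5-fold difference (log2 -2.91, SE 0.19, adjusted p = 9.6e-13; pair averages 5.1e-04). Ramp3, an accessory protein of receptors for adrenomedullin and related peptides, had 384.6, 462.8, 278.1 and 273.1 at time 24. At time 6 it had 4679 and 4575 in replicates 1 and 2 but 1522 and 1451 in replicates 3 and 4. The groups did not overlap, although the pairs at time 6 lay far apart (log2 -2.83, SE 0.29, adjusted p = 6.5e-09; pair averages 0.0041). Tagln, an actin-binding protein of contractile cells, had 877.1, 929.7, 774.6 and 824 at time 24, against 4680, 4562, 3594 and 3458 at time 6 (log2 -2.21, SE 0.11, adjusted p = 7.7e-16; pair averages 9.8e-05).

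Several metabolic enzymes were in the same group. Gclc, the catalytic subunit of the first enzyme of glutathione synthesis, had 542, 477.5, 561.1 and 526.6 at time 24, against 2484, 2562, 1907 and 2154 at time 6, a 4.11-fold difference. Uap1 and Ugdh supply UDP-sugars for glycoproteins and glycosaminoglycans. Uap1 signals were 196.8, 208.5, 196.5 and 233.2 at time 24 and 1055, 1074, 864.2 and 794 at time 6. Ugdh signals were 798.9, 779.4, 1138 and 1059 at time 24 and 3627, 2939, 3319 and 3071 at time 6. Bcat1, which removes the amino group of branched-chain amino acids, had 335 to 358.9 at time 24 and 1098 to 1529 at time 6. The extracellular glycoprotein Tnc had 79.13, 80.04, 155.7 and 150.1 at time 24, against 427.1, 423.5, 660.2 and 663.1 at time 6, with the same order of pairs at both times. The protease inhibitor Timp1, the protein C receptor Procr, Krt15 and Tubb2a completed the group, with log2 differences of -1.57, -1.65, -1.65 and -1.47. None of these 14 genes, which include Pmvk and Idi1 described with the sterol enzymes, had overlapping arrays at times 24 and 6. Of all genes tested, 985 (13.2%) had every time 24 array under every time 6 array. The rule that picked the 14 favours such genes.

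The levels at the other times place these falls. Cd24a averaged 280.3, 613.7, 1883, 229.2 and 188.1 at times 0, 2, 6, 24 and 48, so time 6 was the highest and time 24 was near time 0. Gclc averaged 302.6, 1947, 2277, 526.8 and 458.1 over the same times. Tagln ran otherwise, with 5995 at time 0, 5882 at time 2, 4074 at time 6, 851.3 at time 24 and 1333 at time 48. Of the 14 genes, 13 had a higher mean at time 6 than at time 0, Tagln being the exception, and 6 had a higher mean at time 6 than at time 2. Time 2 has replicates 1 and 2 only, so its means come from 1 replicate set where those of the other times mix both. Within replicates 1 and 2 the count was 6 too, and Pmvk averaged 1561 at time 2 and 1530 at time 6. These levels share the time 6 and time 24 arrays with the comparison and are given as a description.

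The genes that rose most encoded secreted and matrix proteins, receptors and oxidative enzymes. Angptl7, a secreted angiopoietin-like protein, had 2183, 2257, 1954 and 2114 at time 24, against 539.5, 492.9, 596.6 and 598.9 at time 6. The difference was 3.67-fold (log2 1.88, SE 0.14, adjusted p = 2.1e-11; pair averages 0.0011). Ephx2, the soluble epoxide hydrolase, had 750.7, 864.7, 750.8 and 736.1 at time 24, against 166.9, 196.3, 234.1 and 203.1 at time 6 (log2 1.80, SE 0.19, adjusted p = 1.7e-08; pair averages 0.0049). Pdgfrb, the beta receptor for platelet-derived growth factor, had 465.1, 393.1, 264.6 and 260.5 at time 24, against 77.26, 79.97, 92.27 and 78.31 at time 6 (log2 1.69, SE 0.19, adjusted p = 4.5e-08; pair averages 0.0064). All 4 arrays at time 24 were higher for each of these genes, with replicates 1 and 2 the highest for Pdgfrb.

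Secreted matrix-associated proteins in the group included Ecm1, Ccdc80 and Matn2. Ecm1 had 4180, 3750, 5597 and 5825 at time 24 and 1569, 1385, 1758 and 1933 at time 6. Ccdc80 had 4634, 4614, 8374 and 7755 at time 24, against 1495, 1430, 3100 and 3039 at time 6; replicates 3 and 4 were the higher at both times. Matn2 had 845.8, 722.1, 640.1 and 566.8 at time 24, against 211.2, 179.5, 273.8 and 258.6 at time 6. The growth factor Tgfb3 showed the opposite order of pairs, with 4266, 3871, 2190 and 2120 at time 24 and 1336, 1371, 711 and 777.2 at time 6. The interferon-regulated membrane protein Bst2 had 925.5, 998.5, 1266 and 1520 at time 24, against 325.4, 302.8, 425.7 and 415.1 at time 6. The guanylate-binding protein Gbp2b, the aldehyde oxidase Aox3, Nrep, the adhesion molecule F11r, the actin-binding Svil and the nuclear envelope protein Syne2 also rose, with log2 differences between 1.38 and 1.71. A second probe set of F11r gave -0.06, so its change rests on 1 probe set.

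**Figure D1:**
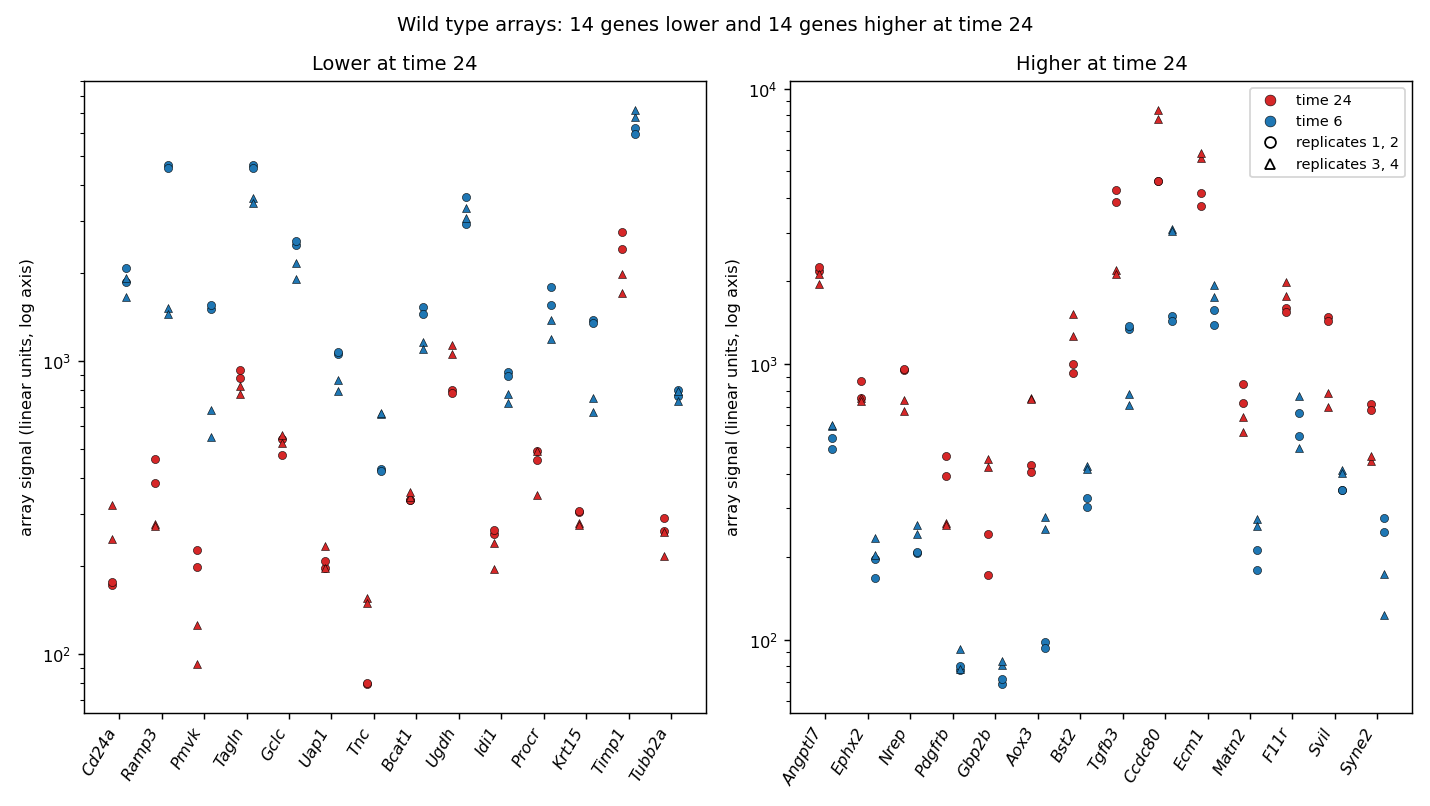
Signal of each wild type array (log axis, linear units) for the 14 genes that fell most and the 14 that rose most under the rule for named genes; red is time 24, blue is time 6, circles are replicates 1 and 2 and triangles replicates 3 and 4. The time 24 and time 6 arrays do not overlap for any of the 28 genes, and arrays of a pair lie close together, as for Ramp3 at time 6 (4679 and 4575 against 1522 and 1451). Of all genes tested, 13.2% had no overlap and were lower at time 24, and 17.8% had none and were higher.

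Of these 14 genes 11 had a higher mean at time 24 than at time 0, and the exceptions were Pdgfrb, Nrep and Syne2. Pdgfrb averaged 744.4, 372.9, 81.95, 345.8 and 486.6 at times 0, 2, 6, 24 and 48. Ecm1 averaged 897.3, 1018, 1661, 4838 and 6135, and thus kept its highest mean at time 48.

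Genes of ribosome biogenesis, whose products make and process ribosomal RNA in the nucleolus, fell together. Of 37 members tested, 34 fell, none rose and 3 did not pass, with a median of -0.53 against 0.02 over all genes tested. With pair averages 25 fell. The medians within replicates 1 and 2 and within replicates 3 and 4 were -0.65 and -0.40. Nolc1, a nucleolar phosphoprotein, had 234.3, 263.8, 258.5 and 293 at time 24, against 661.1, 640.1, 682.4 and 643 at time 6 (log2 -1.23, SE 0.10, adjusted p = 1.1e-10; pair averages 0.0011). Rrs1, needed for the large ribosomal subunit, had 149.6, 145.5, 168.4 and 131.5 at time 24 and 353.4, 334, 308.1 and 300.8 at time 6. The RNA helicase Ddx21 had 248, 216.7, 351.4 and 361.9 at time 24, against 507.5, 550, 643.8 and 704 at time 6. Rrp12 had 81.93 to 131.5 at time 24 and 186.3 to 257.8 at time 6. The 3 members that did not pass were Npm1, Emg1 and Polr1c. Polr1c was the highest member, at 0.16. Among cytosolic ribosomal protein genes 2 of 29 rose (6.9%, against 18.8% of all genes), 0 with pair averages with or without the set block, and 1 when any of time 24 replicates 1 and 2 or time 6 replicates 1, 2 and 4 was left out, and the median of that list was 0.06. Its members ranged from -0.26 to 0.22. Of 18 translation factors 6 fell (33.3%, against 14.6% of all genes) and 1 rose (5.56%, against 18.8%). With pair averages 3 of the 18 fell and 1 rose, where 4.36% and 4.68% of all genes did. Eif6, which keeps ribosomal subunits apart, had 1043, 978.1, 1103 and 1253 at time 24 and 1874, 1778, 1691 and 1667 at time 6.

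Genes for charging and supplying amino acids fell too. Of 18 aminoacyl-tRNA synthetases 14 fell and none rose, with a median of -0.50, and 6 fell with pair averages. Gars, which charges glycine, had 1318, 1286, 1350 and 1232 at time 24, against 2539, 2284, 2085 and 2187 at time 6 (log2 -0.79, SE 0.11, adjusted p = 7.2e-07; pair averages 0.013). Of 25 genes of amino acid synthesis and transport and targets of the factor ATF4, 14 fell and 1, Ddit4, rose, with a median of -0.43, and 7 fell with pair averages. Cth, the last enzyme of cysteine synthesis from methionine, had 73.24, 89.81, 129.2 and 103.9 at time 24, against 406.3, 367.9, 332.9 and 218.3 at time 6. Mthfd2, a mitochondrial folate enzyme, had 440.1, 466.4, 656.6 and 584.4 at time 24 and 1413, 1455, 1559 and 1427 at time 6. Asns, asparagine synthetase, had 716.1, 734.2, 766 and 754.6 at time 24, against 1391, 1456, 1568 and 1621 at time 6. Atf4 itself fell by 0.84, while Ddit3, Cebpb and Slc38a2 did not pass, at 0.18, 0.01 and 0.21.

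The amino acid response core TGATGNAA, the letters in which ATF4 is known to bind as a dimer with C/EBP factors, was searched on both strands of the 250 bases before each gene's start. It stood in 3 of the 11 tRNA synthetase promoters that the RefSeq table (GRCm38.p6) gives once (27.3%), in 4 of 19 of the ATF4 list (21.1%) and in 1.65% of 4778 promoters of genes tested. It stood in 2.46% of promoters of genes that fell and in 1.7% of those that rose. Lists in which more members rose held it too, with 2 of 11 of the interferon list (18.2%) and 3 of 26 of the lysosome list (11.5%). Ribosome biogenesis, which fell, had it in 0 of 30, and fatty acid oxidation in 0 of 15. The ATF4 list holds known targets of that factor by its making. The bases nearest the start are shown for genes of the tRNA synthetase and ATF4 lists that fell, since they show where the letters lie. The windows are Asns at chr6:7693210-7693269 (minus strand), Gars at chr6:55037941-55038000 (plus strand) and Tars at chr15:11399659-11399718 (minus strand), printed in the direction of the gene and ending at the base before its start, with the match in capitals.
Asns: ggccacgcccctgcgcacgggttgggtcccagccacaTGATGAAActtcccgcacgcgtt
Gars: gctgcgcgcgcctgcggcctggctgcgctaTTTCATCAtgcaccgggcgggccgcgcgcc
Tars: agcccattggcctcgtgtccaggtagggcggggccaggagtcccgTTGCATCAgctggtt
Between the match and the start lie 15 bases in Asns, where it reads on the gene's strand, and 22 and 7 bases in Gars and Tars, where it reads on the other strand. These matches are a description of the sequence and not a test of binding.

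Chaperones of the endoplasmic reticulum fold secreted and membrane proteins. Their list also held genes that encode no chaperone, such as Sec61b, Syvn1 and Xbp1. The list fell almost as a whole: 21 of 23 fell, none rose, and the median was -0.46. With pair averages 6 fell. The medians were -0.59 in replicates 1 and 2 and -0.31 in replicates 3 and 4. Hspa5, the main chaperone of that compartment, had 4338, 4605, 5141 and 5126 at time 24, against 8018, 7861, 8964 and 7936 at time 6 (log2 -0.77, SE 0.08, adjusted p = 7.9e-09; pair averages 0.0053). Creld2, a secreted stress protein, had 342.6, 368.6, 463.3 and 368.4 at time 24 and 637.3, 616.2, 629.6 and 613.2 at time 6. Xbp1, a transcription factor of the unfolded protein response, had 1546, 1437, 1576 and 1794 at time 24, against 2365, 2351, 2455 and 2344 at time 6. The members that did not pass were Sel1l and Sdf2l1. Of 17 cytosolic and mitochondrial heat shock genes 10 fell and 1, Hspa4l, rose, with a median of -0.42, and 4 fell with pair averages. Hspd1, the mitochondrial chaperonin, had 2134, 2145, 2797 and 2602 at time 24, against 3676, 3624, 3775 and 4099 at time 6. Of 31 proteasome subunits 8 fell (25.8%, against 14.6% of all genes) and none rose. With pair averages 1 of the 31 fell, where 4.36% of all genes did. Psmc4 was the lowest at -0.68.

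Enzymes of cholesterol synthesis, the route from acetyl-CoA through mevalonate and squalene to sterols, held the list with the lowest median. Of 19 members tested 14 fell, none rose, and the median was -0.78, and 10 fell with pair averages. Medians were -0.72 in replicates 1 and 2 and -0.92 in replicates 3 and 4. With the mean of all probe sets of a gene the median was -0.51. Pmvk, phosphomevalonate kinase, had 198, 226, 125.8 and 92.54 at time 24, against 1505, 1554, 683.1 and 552.1 at time 6 (log2 -2.44, SE 0.22, adjusted p = 8.3e-10; pair averages 0.0026). Idi1, which isomerises isopentenyl diphosphate, had 257, 264.6, 239.2 and 195.3 at time 24, against 919.9, 889.4, 772.1 and 717.1 at time 6, a 3.16-fold difference. Hsd17b7, a sterol ketone reductase, had 209.4, 194.6, 238.3 and 202.1 at time 24 and 615.8, 604.4, 528.2 and 538.8 at time 6. Hmgcs1, which makes hydroxymethylglutaryl-CoA, had 954.1, 1046, 619.4 and 664.9 at time 24, against 2014, 1768, 1894 and 2070 at time 6. Cyp51, Sqle, Msmo1 and Mvk fell by 1.23, 1.20, 1.09 and 1.08. Nsdhl, Srebf2, Dhcr7, Tm7sf2 and Ebp did not pass, the lowest of them being Nsdhl at -0.27. Srebf2 encodes the factor that drives these enzymes when sterols are low.

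The letters CCAAT, to which the factor NF-Y is known to bind in promoters of sterol and chaperone genes, stood on either strand in all 13 promoters of the sterol list that the table gives once (100%), and in 17 of 21 promoters of the ER chaperone list (81.0%). They stood in 37.0% of the promoters of all genes tested, in 42.1% of those of genes that fell and in 37.5% of those of genes that rose. The letters were not particular to lists that fell. They stood in 10 of 13 promoters of the FOXO list (76.9%) and 18 of 24 of the mitosis list (75%). Ribosome biogenesis, which fell, had them in 10 of 30 (33.3%). The GC box GGGCGG stood in all 13 of the sterol list as well. It stood in 12 of 13 of the FOXO list and in 3056 of the 4778 promoters of all genes tested. The sterol element TCACNCCAC stood in 1 of the 13 sterol promoters, which is Hmgcs1. Windows before the start are shown for Idi1 (chr13:8885526-8885605 (plus strand)), Hsd17b7 (chr1:169969206-169969405 (minus strand)), Hmgcs1 (chr13:119690101-119690350 (plus strand)) and, for the chaperones, Hspa5 (chr2:34771840-34772089 (plus strand)), with each CCAAT or its reverse complement in capitals.
Idi1: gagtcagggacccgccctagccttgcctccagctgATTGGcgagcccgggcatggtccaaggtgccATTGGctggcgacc
Hsd17b7: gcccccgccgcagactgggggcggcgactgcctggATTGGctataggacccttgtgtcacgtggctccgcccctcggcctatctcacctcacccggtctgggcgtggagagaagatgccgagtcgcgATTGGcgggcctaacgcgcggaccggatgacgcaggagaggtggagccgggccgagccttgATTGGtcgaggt
Hmgcs1: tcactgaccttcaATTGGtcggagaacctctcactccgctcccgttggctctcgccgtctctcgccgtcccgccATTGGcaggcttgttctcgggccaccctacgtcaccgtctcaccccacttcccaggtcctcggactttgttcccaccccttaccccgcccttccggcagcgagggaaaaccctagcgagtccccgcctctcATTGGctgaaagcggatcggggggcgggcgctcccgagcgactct
Hspa5: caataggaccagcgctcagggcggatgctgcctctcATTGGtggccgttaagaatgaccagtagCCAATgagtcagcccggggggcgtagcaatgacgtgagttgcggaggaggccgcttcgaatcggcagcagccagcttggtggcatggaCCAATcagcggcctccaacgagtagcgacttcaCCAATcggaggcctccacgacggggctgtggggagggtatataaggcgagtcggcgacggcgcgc
Idi1 holds 2 matches, Hsd17b7 and Hmgcs1 hold 3 each and Hspa5 holds 4, all of them within the 250 bases searched. The match of Hspa5 with 181 bases between it and the start overlaps an AP-1 match (TGACTCA, on the other strand). A match says only that the letters are present.

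Lipid genes outside sterol synthesis split. Of 12 genes of fatty acid synthesis 6 fell (50%, against 14.6% of all genes) and 2 rose (16.7%, against 18.8%). With pair averages 2 of the 12 fell and 1 rose, where 4.36% and 4.68% of all genes did. Scd1, which desaturates stearoyl-CoA, had 1972, 2145, 2437 and 2321 at time 24, against 5451, 5259, 5411 and 5870 at time 6. Fasn, fatty acid synthase, had 904.5, 828.5, 824.3 and 784.6 at time 24 and 1258, 1176, 1395 and 1639 at time 6. Fads2, a desaturase of polyunsaturated fatty acids, rose by 0.52. Of 18 genes of fatty acid oxidation 10 rose (55.6%, against 18.8% of all genes) and none fell, with a median of 0.28. With pair averages 4.68% of all genes rose, and of these 18 genes 1 did. That 1 was Ephx2, which hydrolyses lipid epoxides and takes no part in the oxidation cycle itself. The median was 0.22 in replicates 1 and 2 and 0.23 in replicates 3 and 4. Plin2, which coats lipid droplets, had 907, 997.2, 955.2 and 853.4 at time 24, against 426.1, 433.2, 494.3 and 420.1 at time 6. Dgat1, which completes triglycerides, had 581.2, 570.9, 565.3 and 504.5 at time 24, against 1801, 1542, 1314 and 1261 at time 6.

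FOXO factors and their target genes were the list with the highest median over the 4 arrays and in replicates 1 and 2. In replicates 3 and 4 their median (0.22) lay under those of SRF and YAP targets (0.24) and fatty acid oxidation genes (0.23). Of 15 tested 10 rose and 1, Sod2, fell, with a median of 0.47, and 4 rose with pair averages. The medians were 0.62 in replicates 1 and 2 and 0.22 in replicates 3 and 4. The rise was not particular to wild type. In PKBa-/- cells 9 of the 15 rose and 1 fell, with a median of 0.51, where 19.9% of all genes rose. The difference of the changes, wild type minus PKBa-/-, passed for 1 member, which was lower in wild type. Sesn1, a stress-induced inhibitor of mTORC1, had 768.1, 729.1, 803 and 926.4 at time 24, against 276.4, 314.7, 371.3 and 367 at time 6 (log2 1.21, SE 0.12, adjusted p = 4.3e-09; pair averages 0.0041). Ccng2, an atypical cyclin linked to cell cycle exit, had 863.3, 791, 896.8 and 936.3 at time 24, against 332.7, 393.3, 443.7 and 394.2 at time 6. Txnip, which inhibits thioredoxin and glucose uptake, had 1171, 1022, 1052 and 1160 at time 24 and 655.7, 622.5, 579.6 and 688.5 at time 6. Klf9 rose by 0.64, and Foxo1 and Foxo3 rose by 0.50 and 0.35 with arrays as replicates only. Of 32 lysosome genes 9 rose (28.1%, against 18.8% of all genes) and 1 fell, 3 and 0 with pair averages. The acid lipase Lipa had 1231, 1299, 1337 and 1205 at time 24, against 544, 603.1, 716.9 and 648.3 at time 6.

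The medians of DNA replication and mitosis genes differed in sign. Of 32 DNA replication genes 11 fell (34.4%, against 14.6% of all genes) and 1, Pola1, rose. Their median was -0.22, and 3 fell with pair averages. Fen1, the flap endonuclease, had 1278, 1283, 1286 and 1222 at time 24, against 1986, 2029, 1819 and 1939 at time 6. Of 29 mitosis genes 8 rose (27.6%, against 18.8% of all genes) and none fell, with a median of 0.22. With pair averages 2 of the 29 rose, where 4.68% of all genes did. Ccnb2, a mitotic cyclin, had 694.3, 704, 847.1 and 827 at time 24, against 265.2, 288.2, 362.6 and 350.6 at time 6. Myc, the growth-promoting transcription factor, had 138.8, 166.2, 189 and 153.4 at time 24 and 245.4, 213.8, 288.9 and 298.8 at time 6.

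Contractile genes did not move as a group, and their median was -0.01. Of 20 tested 5 fell (25%) and 3 rose (15%), against 14.6% and 18.8% of all genes. With pair averages 3 of the 20 fell and 1 rose, where 4.36% and 4.68% of all genes did. The contractile genes that fell most were Tagln, Acta2 and Tpm1. Acta2, smooth muscle actin, had 1563, 1778, 1554 and 1517 at time 24, against 5214, 5322, 3932 and 3696 at time 6. A second probe set of Acta2 gave 0.07, and the other 2 of Tpm1 gave -0.79 and 0.00. Talin, Tln1, rose by 0.50. Of 27 immediate early genes 7 fell (25.9%) and 6 rose (22.2%), against 14.6% and 18.8% of all genes. With pair averages 4 of the 27 fell and 1 rose, where 4.36% and 4.68% of all genes did. Dusp1, a phosphatase of MAP kinases, had 862.5, 845.5, 1012 and 853.1 at time 24 and 1645, 1622, 2478 and 2537 at time 6, whereas Egr1 had 448.1, 398.2, 676.8 and 567.4 at time 24 and 113.1, 139.5, 242.2 and 260.7 at time 6. The metallothionein Mt2 had 5035, 5850, 4099 and 4128 at time 24, against 12367, 11411, 11608 and 11578 at time 6. Of 23 growth factor receptors 8 rose (34.8%) and 2 fell (8.7%), against 18.8% and 14.6% of all genes. With pair averages 3 of the 23 rose and 1 fell, and 5 rose on arrays when time 24 replicate 4 was left out. Beside Pdgfrb, the collagen receptor Ddr1 had 1111, 1052, 1004 and 1135 at time 24, against 633.5, 602.7, 630.4 and 668.9 at time 6.

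With pair averages and the set block, the list counts lay nearer to those on arrays. Over all genes tested this fit gave 16.2% higher and 13.3% lower, against 4.68% and 4.36% with pair averages alone. Members that fell were 18 of 23 of the ER chaperone list (6 with pair averages alone), 14 of 18 tRNA synthetases (6) and 14 of 25 ATF4 genes (7). Also lower were 14 of 19 sterol enzymes (10), 31 of 37 ribosome biogenesis genes (25) and 10 of 17 heat shock genes (4). DNA replication had 11 of 32 (3), translation factors 8 of 18 (3) and the proteasome 10 of 31 (1). Of 18 fatty acid oxidation genes 6 rose (1), as did 7 of 15 FOXO genes (4) and 8 of 23 growth factor receptors (3). Higher too were 8 of 32 lysosome genes (3) and 7 of 29 mitosis genes (2).

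**Figure D2:**
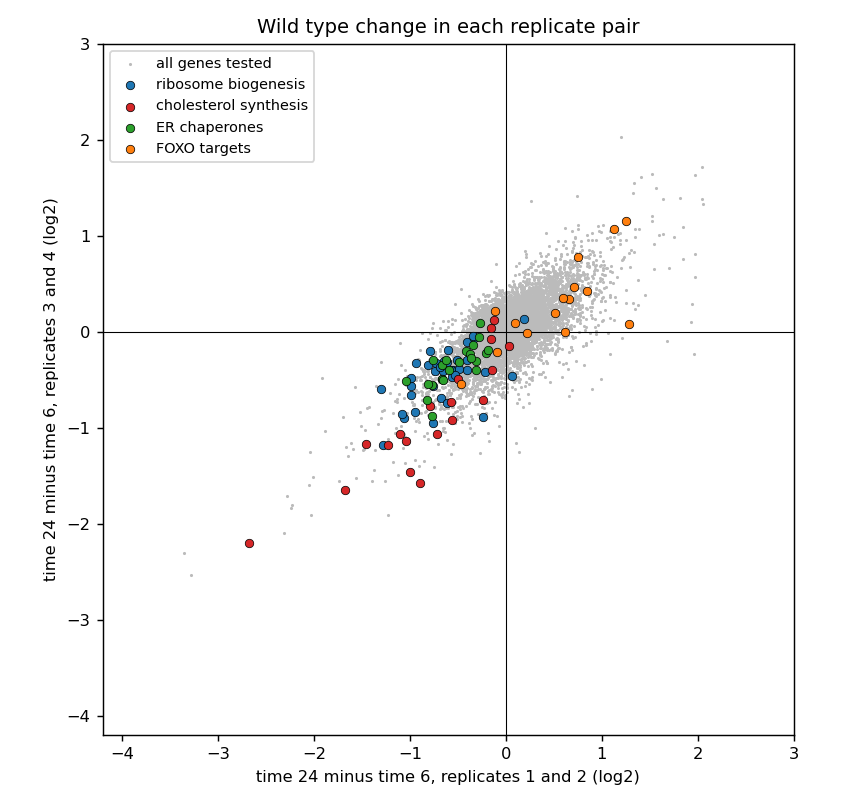
Time 24 minus time 6 on the log2(signal + 32) scale in replicates 1 and 2 (x axis) and in replicates 3 and 4 (y axis) for the 7436 genes tested (grey), with members of 4 lists in colour. Ribosome biogenesis (medians -0.65 and -0.40), cholesterol synthesis (-0.72 and -0.92) and ER chaperones (-0.59 and -0.31) lie mostly in the lower left, and FOXO targets (0.62 and 0.22) mostly at the upper right.

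PKBa-/- fibroblasts gave the most similar comparison, with no array in common. There 2989 of the 7436 genes passed (40.2%), 1482 higher (19.9%) and 1507 lower (20.3%) at time 24. With pair averages 1324 passed (17.8%), 640 higher (8.61%) and 684 lower (9.20%). Of the 1399 genes that rose in wild type cells 829 also rose in PKBa-/- cells, which is 59.3% of the wild type and 55.9% of the PKBa-/- list. Of the 1087 that fell 775 also fell, 71.3% of the wild type and 51.4% of the PKBa-/- list. With pair averages 185 rose in both (53.2% of the wild type and 28.9% of the PKBa-/- list) and 227 fell in both (70.1% and 33.2%). The difference of the changes, wild type minus PKBa-/-, passed for 636 genes (8.55%), 327 with a higher value in wild type (4.40%) and 309 with a lower one (4.16%). It passed for 1012 with the replicate number as a block, 473 with pair averages and the replicate set as a block (6.36%), and 40 with pair averages alone (0.538%), so single genes are given with the adjusted p of pair averages.

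Sterol enzymes differed between the genotypes. In wild type cells 14 of 19 fell and none rose (median -0.78), against 2 that fell and 9 that rose in PKBa-/- cells (median 0.36). With pair averages 10 fell in wild type, against 2 that fell and 1 that rose in PKBa-/- cells. The difference was lower in wild type for 16 of the 19, where 4.16% of all genes passed in that direction. It was lower for 12 with pair averages and the set block and for 2 with pair averages alone, where 3.36% and 0.350% of all genes were. Medians of the difference were -1.10 in replicates 1 and 2 and -0.91 in replicates 3 and 4. Idi1 averaged 239.1 ± 31.0 at time 24 and 824.7 ± 95.9 at time 6 in wild type cells, and 642.0 ± 187 at time 24 and 520.7 ± 45.9 at time 6 in PKBa-/- cells (SD, n = 4 arrays each). Its difference was -1.91 (SE 0.23, adjusted p = 5.0e-07; pair averages 0.036). Hmgcs1 averaged 821.1 ± 211 at time 24 and 1936 ± 134 at time 6 in wild type cells, against 2265 ± 581 at time 24 and 1415 ± 155 at time 6 in PKBa-/- cells (SD, n = 4 arrays each; difference -1.87, SE 0.28, adjusted p = 2.9e-05; pair averages 0.072). Pmvk fell by 2.44 in wild type and fell by 1.25 in PKBa-/- cells. Hsd17b7 fell by 1.31 in wild type and fell by 0.79 in PKBa-/- cells.

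Mitosis genes rose less in wild type than in PKBa-/- cells. In wild type cells 8 of 29 rose (median 0.22), against 28 in PKBa-/- cells (median 0.99), or 2 against 23 with pair averages. Of all genes 18.8% rose in wild type and 19.9% in PKBa-/- cells, or 4.68% and 8.61% with pair averages. The difference was lower in wild type for 23 of the 29, where 4.16% of all genes passed in that direction. It was lower for 19 with pair averages and the set block and for 1 with pair averages alone, where 3.36% and 0.350% of all genes were. For DNA replication genes the difference was higher in wild type for 2 of 32 and lower for none, where 4.40% and 4.16% of all genes passed. The median of their difference was 0.02. Ccnb2 averaged 768.1 ± 80.2 at time 24 and 316.7 ± 47.3 at time 6 in wild type cells, against 1458 ± 142 at time 24 and 213.2 ± 17.7 at time 6 in PKBa-/- cells (SD, n = 4 arrays each; difference -1.40, SE 0.20, adjusted p = 1.3e-05; pair averages 0.075). Ribosome biogenesis genes, by contrast, fell in both: 34 of 37 in each genotype (25 and 29 with pair averages), with medians of -0.53 in wild type and -0.71 in PKBa-/- cells, and the difference passed for 0 of them in the limma fit, whichever replicate unit was used. An unadjusted p under 0.05 was met by 8 of them on arrays and by 0 on pair averages.

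Single genes with large differences that passed with pair averages included a metalloprotease, adhesion proteins and inhibitors of differentiation. Adamts1, a secreted metalloprotease, had 379.3, 400, 560.4 and 434.7 at time 24 and 1232, 1123, 933.8 and 886.1 at time 6 in wild type cells, while PKBa-/- cells averaged 1732 ± 73.9 at time 24 and 382.0 ± 29.3 at time 6 (SD, n = 4 arrays each). The change was -1.18 in wild type and 2.09 in PKBa-/- cells, a difference of -3.27 (SE 0.16, adjusted p = 4.1e-16; pair averages 4.6e-05). Id3, an inhibitor of helix-loop-helix factors, had 2876, 2969, 3522 and 3697 at time 24 and 1762, 1679, 2316 and 2419 at time 6 in wild type cells, while PKBa-/- cells averaged 855.6 ± 49.1 at time 24 and 1638 ± 44.4 at time 6 (SD, n = 4 arrays each; difference 1.59, SE 0.17, adjusted p = 5.6e-08; pair averages 0.015). Bst2 rose by 1.59 in wild type cells and fell by 0.39 in PKBa-/- cells. Itga6, an integrin chain of laminin receptors, fell by 1.14 in wild type cells, while it rose by 0.84 in PKBa-/- cells. The retinal reductase Dhrs3 rose by 1.08 in wild type cells and fell by 0.48 in PKBa-/- cells. Angptl7 rose by 1.88 in wild type cells, against 0.19 (adjusted p = 0.31) in PKBa-/- cells, where its signal averaged 162.1 at time 24 and 136.8 at time 6.

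**Figure D3:**
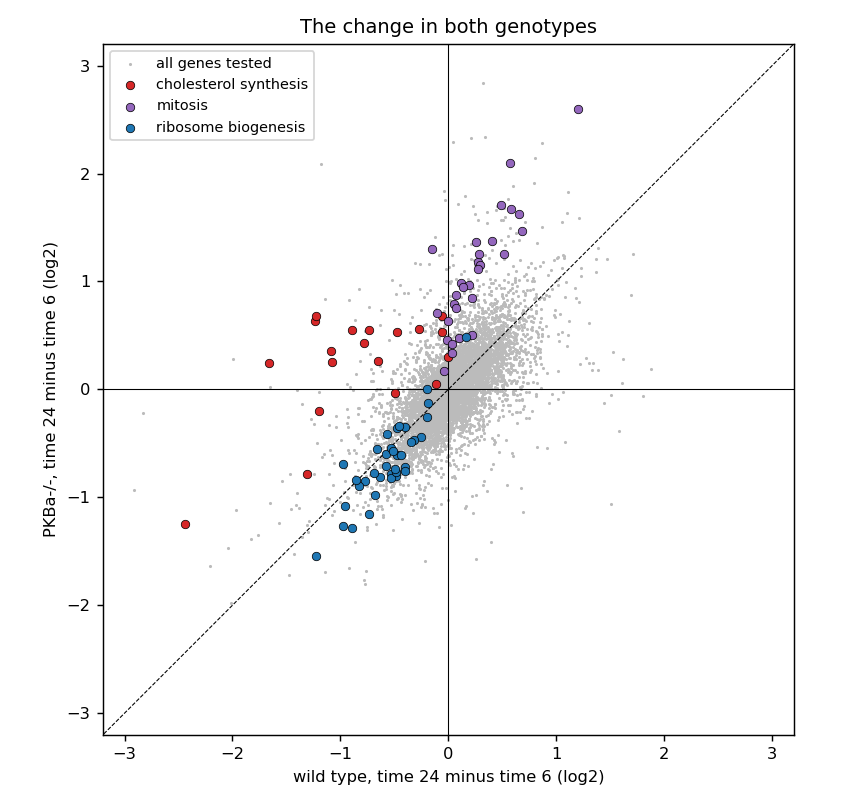
Time 24 minus time 6 (log2) in wild type (x axis) and PKBa-/- cells (y axis) for the 7436 genes tested, with 3 lists in colour and the line of equal change dashed. Cholesterol synthesis genes lie at the left and mostly above 0 on the y axis (medians -0.78 in wild type and 0.36 in PKBa-/-), mitosis genes above the line (0.22 and 0.99) and ribosome biogenesis genes along it (-0.53 and -0.71).

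**Figure D4:**
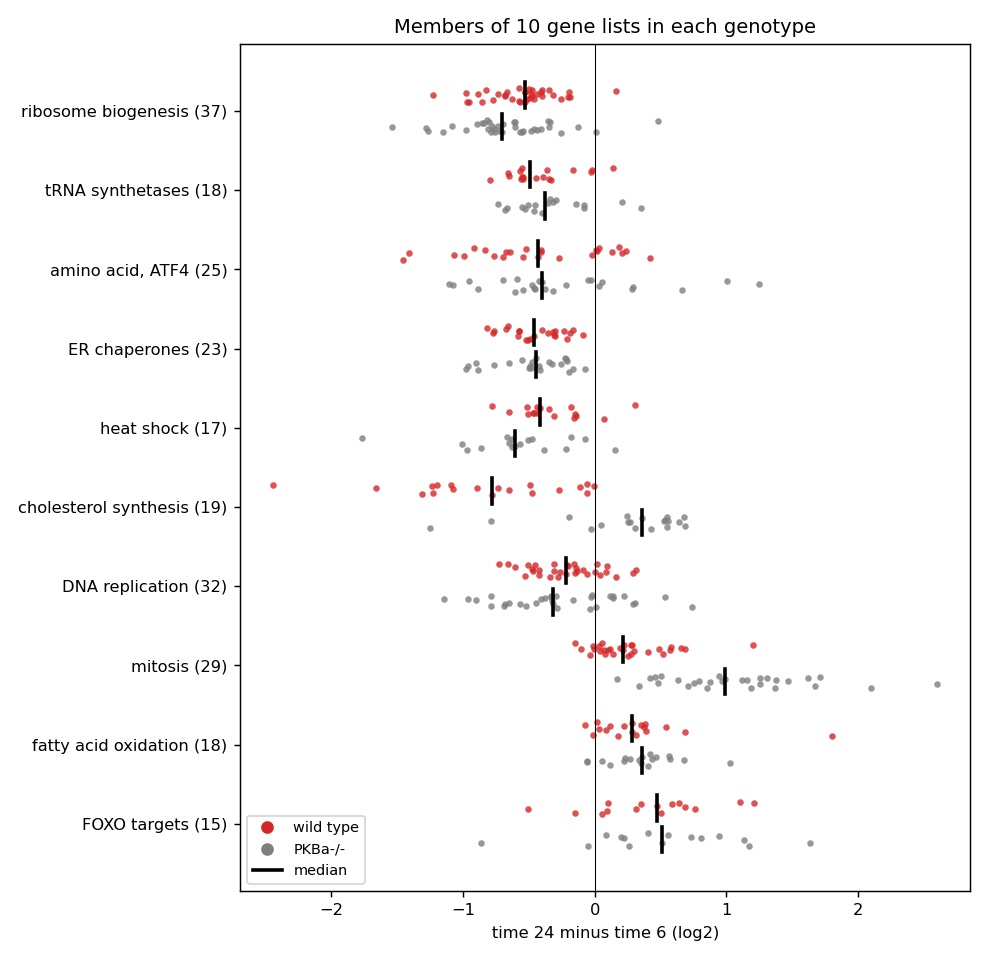
Time 24 minus time 6 (log2) of every tested member of 10 lists, wild type in red above PKBa-/- in grey, with the number tested in brackets and the median as a bar. The wild type medians run from -0.78 (cholesterol synthesis) to 0.47 (FOXO targets).

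Across the 5 times, the lists that fell between 6 and 24 did not share 1 course in wild type cells. The median member level of ribosome biogenesis, on the log2(signal + 32) scale, was 8.76, 8.85, 9.30, 8.59 and 8.69 at times 0, 2, 6, 24 and 48, highest at time 6. That of ER chaperones was 10.15, 10.27, 10.48, 9.96 and 9.88. Cholesterol synthesis was highest at time 2, with 9.17, 9.72, 9.31, 8.39 and 8.14, and stayed low at time 48. FOXO targets were at 8.81, 8.56, 8.57, 9.05 and 9.29, and mitosis at 8.97, 8.53, 8.86, 9.19 and 8.65. The median over all genes tested stayed between 8.61 and 8.70. Within replicates 1 and 2, the set present at time 2, ribosome biogenesis (9.20) and ER chaperones (10.52) were again highest at time 6 and cholesterol synthesis (9.72) at time 2.

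**Figure D5:**
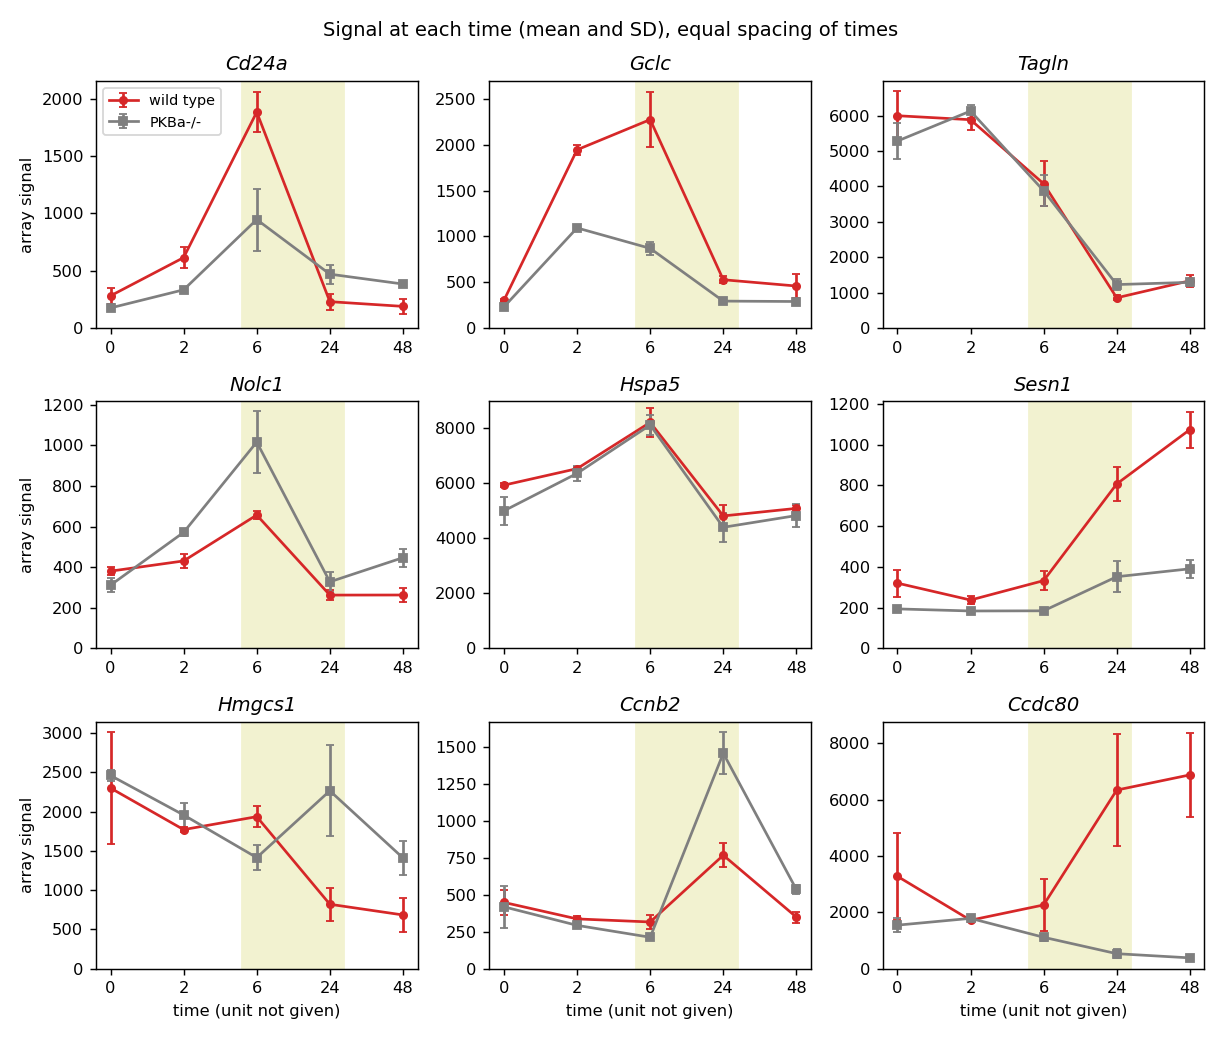
Mean signal and SD (error bars; 4 arrays per point, 2 at time 2) of 9 genes at times 0, 2, 6, 24 and 48 in wild type (red circles) and PKBa-/- cells (grey squares), with times equally spaced, the y axis starting at 0 and the interval compared shaded. Cd24a, Gclc, Nolc1 and Hspa5 were highest at time 6 in wild type cells, Sesn1 and Ccdc80 were highest at time 48, and Hmgcs1 was lower at time 24 in wild type (821.1) but higher in PKBa-/- cells (2265).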

How the data were processed

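Biotinylated cRNA from fibroblasts was hybridised to 36 Affymetrix arrays, per the labels' protocols. The deposited table gives every probe set a linear intensity on each array (8.620 to 19337); its summarisation, normalization and software are not given in the sources used here. Of 22690 probe sets, 20380 have 1 gene in the platform annotation, 691 several and 1555 none, and 64 are controls. Where a gene had several single-gene probe sets, the one with the highest mean stood for it, which left 12393 genes. Array medians differed by at most 1.086 times, and no further normalization was applied. Values were taken as log2(signal + 32), and the 40% of genes with the lowest mean over all 36 arrays were not tested (7436 left, signal of about 123 or more). Precision is set by how many arrays there are, as arrays have no read depth.

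All 36 arrays entered 1 linear model with a mean for each of 10 groups (limma 3.58.1, R 4.3.3; residual degrees of freedom 26, prior 5.38). The two-sided moderated p was corrected by the Benjamini-Hochberg method across the genes tested, at a threshold of 0.05. "Passed", "rose" and "fell" mean that the threshold was met. Same-numbered arrays at times 24 and 6 deviated together (correlation of residuals 0.512 to 0.622 in wild type, 0.342 to 0.575 in PKBa-/-), as did the other arrays of the same replicate pair, so a fit with the replicate number as a block was run beside the main one. Arrays of a pair shared part of their deviation (correlation 0.66), hence the pair averages (8 residual, 4.23 prior degrees of freedom). No pair of arrays held identical values.

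On simulated data for the wild type comparison (7436 genes) with independent arrays, arrays as replicates recovered 74.6%, 98.5% and 100% of genes changed 1.5-, 2- and 4-fold, with 8 false calls. With deviations shared within pairs, pair averages recovered 31.3%, 88.1% and 98.5%, with 6 false calls, and arrays as replicates made 392 false calls. These deviations were drawn separately for each pair at each time, without the part that a replicate set shared between times in the data.

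Named genes are the 14 highest and 14 lowest of those that passed in both fits with 1 sign in both pairs, up to 4 such members per list (and 1 in the other direction), the 6 largest genotype differences each way that passed in both fits, and Akt1. The rule leaves out sex-linked genes, applied here as Xist and Y-linked genes; other X-linked genes were kept. Other list members are given to complete their list and were chosen after their values were seen. The members, the 39 lists and the tests were chosen with earlier results of these data known. Promoters are from RefSeq (GRCm38.p6), used where the table gives a gene 1 promoter; motifs were searched by exact letters.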

Additional observations from a re-analysis of the deposited data

Results flagged for a closer look

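The 110 named genes, each at times 24 and 6, gave 220 sets of 4 wild type values from the same 8 arrays. Dixon's ratio of an array's gap to the set's range was taken in each. Chance flags about 1 set in 20 where the 4 values are independent. These arrays come in close pairs, so the count cannot be set against that rate. In 5 sets 1 array stood apart from the other 3. These were Ephx2 at time 24 (ratio 0.877, replicate 2 highest at 864.7), Hspa5 at time 6 (0.850, replicate 3 highest at 8964), Fen1 at time 24 (0.882, replicate 4 lowest at 1222), Dusp1 at time 24 (0.890, replicate 3 highest at 1012) and Fgfr1 at time 24 (0.878, replicate 1 highest at 2017). Fgfr1 rose by 0.51 in the comparison (adjusted p = 0.0012; pair averages 0.036).

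For 42 of the 110 named genes the change differed between the genotypes in the limma test of the difference itself (wild type minus PKBa-/-, log2). For 13 of them the difference also passed with pair averages, and their values were Adamts1 (-3.27), Klhl13 (-2.52), Ifitm1 (-2.25), Scara5 (-1.99), Itga6 (-1.98), Idi1 (-1.91) and Dgat1 (-1.22) where wild type was lower, and Dhrs3 (1.56), Id3 (1.59), Angptl7 (1.68), Id1 (1.81), Tm4sf1 (1.83) and Bst2 (1.97) where it was higher. The wild type change of Klhl13, Ifitm1 and Tm4sf1 did not pass, and that of Scara5 passed at 0.034 but not with pair averages (0.30).

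For the other 29 the difference passed with arrays as replicates and not with pair averages. Lower in wild type were Ramp3 (-2.61), Cd24a (-1.97), Hmgcs1 (-1.87), Krt15 (-1.67), Ccnb2 (-1.40), Pmvk (-1.19), Fst (-1.18), Cdca3 (-0.78), Tpm1 (-0.69), Acta2 (-0.68), Col16a1 (-0.67), Procr (-0.60), Tagln (-0.57), Gclc (-0.57) and Hsd17b7 (-0.53). Higher in wild type were Man2b1 (0.47), Amotl2 (0.50), Srxn1 (0.55), Tgif1 (0.67), Ddr1 (0.68), Rspo1 (0.76), Tgfb3 (1.19), Syne2 (1.20), Gbp2b (1.34), Aox3 (1.55), Ecm1 (1.56), F11r (1.57), Ephx2 (1.86) and Ccdc80 (2.58). The difference of Gclc, Procr, Tgfb3, Hsd17b7 and Srxn1 lost its call when single arrays were left out, with adjusted p up to 0.076, 0.085, 0.068, 0.090 and 0.057.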

How the results depend on the processing

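The number of genes that passed in wild type (2486) moved most with how the arrays of a pair were treated. It was 672 with pair averages, 1073 with a random pair effect, 3827 with array weights and 3910 in replicates 1 and 2 alone. For PKBa-/- cells (2989) it was 1324 with pair averages and 1640 with a random pair effect. For the genotype difference (636) it was 40 with pair averages, 156 with a random pair effect, 1012 with the replicate block, 1512 with the replicate set within genotype as a block, 1638 with array weights and 1780 in replicates 1 and 2 alone. The cause of these shifts was not tested beyond the simulation, in which deviations shared within pairs raised the false calls with arrays as replicates. That simulation left out the deviation a replicate set shared between times. With the replicate block 2987 genes passed in wild type and 3464 in PKBa-/- cells, and the block ended no call of a named gene. Leaving out 1 array at a time gave 2163 to 2338 genes in wild type, 2690 to 2902 in PKBa-/- cells and 519 to 666 for the difference.

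Offsets of 16 and 64, other filters on dim genes, an intensity trend, quantile normalization, the mean of all probe sets, the compared groups alone and, chosen after seeing the data, pair averages with the replicate set as a block kept these counts within 1.5 times. Some small lists changed the direction in which more members passed. Members that fell numbered 4 for p53 targets and 5 with array weights and in replicates 1 and 2 alone, where more rose. For NRF2 targets 4 fell, and 5 with array weights and in replicates 1 and 2 alone. For proteases 4 fell, against 3 with pair averages and the set block and 2 with a random pair effect or without time 24 replicate 3. For mesenchymal factors 4 fell, against 2, 0 and 3 with pair averages and the set block, a random pair effect and replicates 3 and 4 alone. In replicates 3 and 4 alone, 3 cyclins and inhibitors and 2 clock genes rose and more fell. None of these lists is described by its direction above. Of 59 named genes with more than 1 probe set, 8 had a probe set that did not share the direction. No named gene that passed in wild type changed direction. Calls were lost by Eif4e in replicates 3 and 4 alone (adjusted p = 0.083, limma), by Chordc1 and Ndufs7 with a random pair effect (0.076 and 0.091), by Fgfr1 in both (0.10 and 0.11), by Id1 with pair averages and a random pair effect (0.080 and 0.095), and by Scara5 in 9 refits (0.083 to 0.38), 4 of them without single arrays (time 24 replicates 3 and 4, time 6 replicates 1 and 2).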

Other observations

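Genes of the glutathione and thioredoxin systems that NRF2 is known to drive held large single changes beside Gclc. Srxn1, which repairs oxidised peroxiredoxins, had 227.1, 213.8, 200.2 and 204.7 at time 24, against 578.2, 627.1, 432.8 and 413 at time 6, and Txnrd1, thioredoxin reductase, had 544, 554, 522.1 and 560.9 at time 24, against 755.8, 788.1, 933.6 and 803 at time 6. The 3 passed with pair averages, while the list of 19 had a median of 0.02. Srxn1 has 4 probe sets, and the others gave -1.42, 0.01 and -0.83.

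Of 26 matrix proteoglycans and glycoproteins 7 fell (26.9%) and 2 rose (7.69%), against 14.6% and 18.8% of all genes. With pair averages 2 of the 26 fell, where 4.36% of all genes did. Fmod, which binds collagen fibrils, had 116.9, 138.5, 128 and 134.5 at time 24, against 354, 343.4, 434.4 and 461 at time 6. Of 26 collagens and collagen-modifying genes 6 fell (23.1%) and 2 rose (7.69%). With pair averages 1 of these 26 fell, which is near the 4.36% of all genes. Col16a1 had 547.8, 522, 484.8 and 392.7 at time 24, against 748.7, 741.2, 812.7 and 838.8 at time 6. Of 13 interferon-induced genes tested 4 rose (30.8%, against 18.8% of all genes), 2 fell (15.4%, against 14.6%) and 7 did not pass. With pair averages 2 of the 13 rose and 0 fell, where 4.68% and 4.36% of all genes did. The median of the 13 was 0.04, against 0.02 over all genes tested. Irf1, a transcription factor of interferon responses, had 754.2, 791.6, 772.9 and 798.9 at time 24, against 563.8, 541.3, 550.7 and 528.2 at time 6.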
